A study of Homo sapiens with 6 samples.

Results

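The mitochondrial ribosomal RNA region was taken as all positions of hg19 chromosome M from 648 to 3230 on the plus strand at which at least 1 crosslink event was recorded. It comprised a 12S part (648 to 1603, 956 nt), a stretch of 67 nt between the rRNAs (1604 to 1670) and a 16S part (1671 to 3230, 1560 nt). Of its 2583 positions, 1802 carried an event in at least 1 library. By library, 552, 221 and 141 of the 105833, 25736 and 18372 positions in control replicates 1, 2 and 3 lay in the region, and 1661, 1362 and 1268 of the 5239862, 1243745 and 1651104 positions in QKI-5 replicates 1, 2 and 3. The members were thus chosen by coordinate and by carrying an event in at least 1 library. The boundaries are approximate, and the sources used here do not say which mitochondrial reference sequence went with hg19.

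The libraries came from BEAS2B, an established bronchial epithelial cell line, and were prepared by iCLIP, in which UV light joins protein to RNA and the reverse transcription stop marks the crosslinked base. The 3 QKI-5 libraries were made with a self-made antibody against QKI-5, the nuclear isoform of the RNA-binding protein Quaking, and the 3 control libraries with no antibody. Cells of both groups were irradiated at 150 mJ/cm2 and no other treatment or genotype separates them per the labels. RNase A was used at high or low dilution, without a statement of which library received which. Separate cultures are not stated for the replicates, so each p-value reflects only the spread among libraries, which may be technical. Identity of the cell line was not checked against marker genes, because no gene coordinates of this build were used.

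Mitochondrial DNA is transcribed on each strand as long RNAs that are cut at tRNAs. The 12S rRNA (gene MT-RNR1) is the RNA of the small mitochondrial ribosomal subunit and the 16S rRNA (gene MT-RNR2) that of the large subunit, with the valine tRNA between them. Both are made and assembled into ribosomes inside mitochondria, and they are among the most abundant RNAs of a human cell. QKI-5 acts in the nucleus, where it binds ACUAA-type elements and regulates splicing. Copies of mitochondrial DNA also lie in nuclear chromosomes, and the sources used here do not say how reads matching several places were handled.

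Library totals ranged from 29810 to 137926 events in controls and from 2143279 to 7283982 with antibody. Levels are given as EPM, events per 1000000 events of the library. A single event is 7.25 to 33.5 EPM in the controls and 0.137 to 0.467 EPM in the QKI-5 libraries, so low control values are coarse. Intervals and floors cover counting error only, because it is not given whether PCR copies were merged.

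The first comparison asked how large a part of each library the rRNA region took with and without antibody. The region held 2.24%, 1.68% and 1.597% of all events in control replicates 1, 2 and 3. It held 0.865%, 1.595% and 1.04% in QKI-5 replicates 1, 2 and 3. Every control thus exceeded every QKI-5 library, but control replicate 3 and QKI-5 replicate 2 were nearly equal, with 95% exact binomial intervals of 1.46 to 1.75% and 1.58 to 1.61%. The means were 1.84 ± 0.352% and 1.17 ± 0.381% (SD, n = 3 each), a ratio of 0.634, with a two-sided exact permutation p of 0.1, the smallest that 3 libraries against 3 allow. Without the 10 highest positions described below the means were 1.15% and 0.797%, and the groups overlapped.

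For each rRNA taken alone, the groups overlapped. The 16S part held 20170, 15069 and 11439 EPM in control replicates 1, 2 and 3. In the QKI-5 libraries, in replicate order, it held 6798, 12741 and 6822 EPM. QKI-5 replicates 1 and 3 lay below all controls, while QKI-5 replicate 2 lay above control replicate 3 (means 15560 ± 4386 and 8787 ± 3424 EPM, SD, n = 3, exact permutation p = 0.2). The 12S part held 2262, 1736 and 4529 EPM in controls and 1850, 3200 and 3574 EPM with antibody, in the same replicate order. The 12S means were almost identical, 2842 ± 1484 and 2875 ± 907 EPM (exact permutation p = 1). Control replicate 3 was the highest of the 6 libraries for 12S and the lowest control for 16S. The stretch between the rRNAs held 1, 0 and 0 events in controls and 22, 10 and 20 events with antibody. Both groups there lie under the floor of 3 events in the controls, 21.8 to 101 EPM, so no difference was detectable at this depth.

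**Figure D1:**
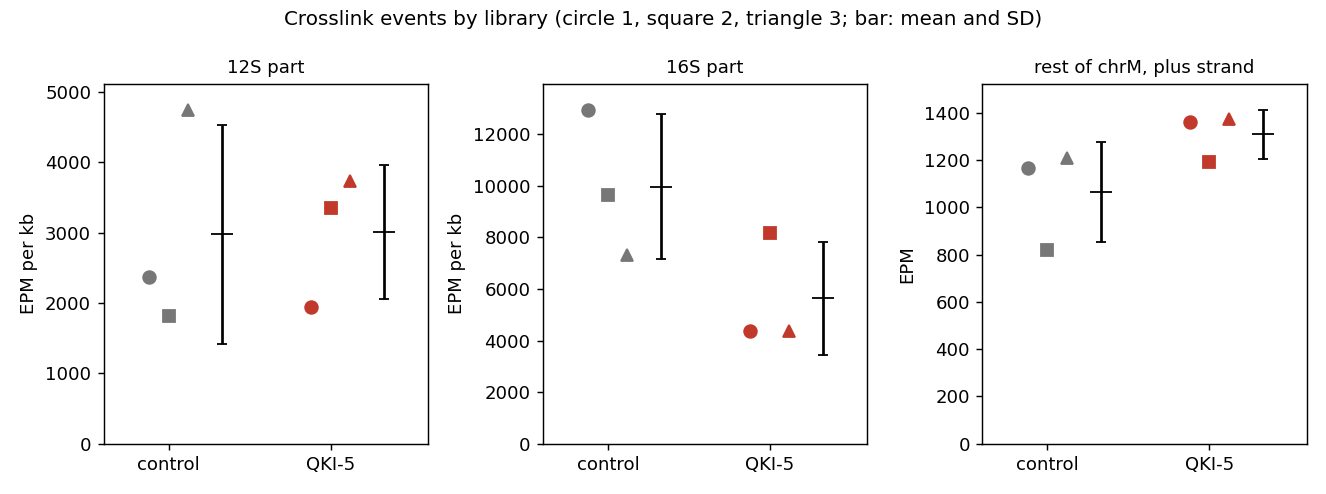
EPM per kb in the 12S part and the 16S part, and EPM in the remainder of the chromosome M plus strand, for each library (grey control, red QKI-5), with group mean and SD (n = 3) as black bars. The 16S panel shows QKI-5 replicates 1 and 3 (4357 and 4373 EPM per kb) below the controls (7333 to 12930 EPM per kb) and QKI-5 replicate 2 (8167 EPM per kb) among them, so the groups overlap in all 3 panels.

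Within the whole genome, both rRNAs stood near the top of every library. Among 29962 tested features, which were 10 kb strand-specific windows with the rRNA parts taken out as features of their own, the 16S part ranked 3, 6 and 4 by events in controls 1, 2 and 3, and ranked 3 in each QKI-5 library. The 12S part ranked 17, 22 and 9 in controls and 12, 11 and 7 with antibody. These ranks compare a 956-nt and a 1560-nt feature with 10 kb windows and are not corrected for length.

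In the edgeR quasi-likelihood test over these features, neither rRNA passed. Of the 29962 features, 0.761% were called higher and 0.107% lower in QKI-5 libraries at an adjusted p (Benjamini-Hochberg) under 0.05. The log2 fold change, QKI-5 over control with TMM scaling, was 0.87 (SE 0.70, adjusted p = 0.527) for the 12S part and -0.21 (SE 0.86, adjusted p = 0.918) for the 16S part. The median over all tested features was 0.78 with TMM scaling and 0.22 with library totals. Neither had an unadjusted p under 0.05, against 18.4% of all features. For neither did all QKI-5 libraries lie above all controls in EPM, against 23.7% of features, or below them, against 3.65%. Relative to that median log2 fold change, the 12S part lay at 0.09 with TMM and at -0.19 with library totals, so its direction depended on the scaling. The 16S part lay at -0.998 and -1.05 relative to it. The median itself moved with the features that passed the filter, to 6.69 without control replicate 1, so a place under it is not read as a result. The 16S part was called in none of the 14 settings tried. DESeq2 gave adjusted p values of 0.366 for 12S and 0.699 for 16S. Counting each position once in place of events gave a log2 fold change of -2.17 for the 12S part, which edgeR then called lower at an adjusted p of 0.0065, and -2.65 for the 16S part with an adjusted p of 0.186. In that fit 0.324% of 20704 features were called lower. The part of the 2583 bases already hit was 5.46 to 21.4% in the controls and 49.1 to 64.3% in the deeper QKI-5 libraries, and its part in this call was not tested.

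The balance of the 2 rRNAs inside each library does not depend on the library total. The 12S part took 10.1%, 10.3% and 28.4% of 12S plus 16S events in control replicates 1, 2 and 3, with 95% exact intervals of 9.04 to 11.2, 8.17 to 12.8 and 24.4 to 32.6%. It took 21.4%, 20.1% and 34.4% in QKI-5 replicates 1, 2 and 3. The replicate numbered 3 was the highest of its group in both cases, and control replicate 3 lay above QKI-5 replicates 1 and 2. The means were 16.3 ± 10.5% and 25.3 ± 7.9% (SD, n = 3, exact permutation p = 0.3). The difference was 9.02 percentage points with all libraries, 15.1 points without control replicate 3, when the groups no longer overlapped (exact permutation p = 0.1), and 4.48 points without QKI-5 replicate 3. Per kb, 16S exceeded 12S by a ratio of 5.46, 5.32 and 1.55 in controls and of 2.25, 2.44 and 1.17 with antibody.

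Events were piled onto few positions. The 6 positions with the highest mean share over the 6 libraries are named here, and positions are also counted from the first base of their part. Position 3183, base 1513 of the 16S part and 47 nt before its last base, was first or second in all 6 libraries. It held 749, 55 and 102 events in control replicates 1, 2 and 3, which were 24.2%, 7.89% and 21.4% of the region's events. In QKI-5 replicates 1, 2 and 3 it held 2718, 2862 and 3695 events, or 4.31%, 8.37% and 12.3%. Controls 1 and 3 stood above all other libraries, but control 2 lay inside the QKI-5 range (means 17.8 ± 8.73% and 8.33 ± 3.99%, SD, n = 3, exact permutation p = 0.3). The peak was narrow: 63.1 to 90.5% of events within 5 nt on either side fell on this single base.

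Position 921, base 274 of the 12S part, was the second of the named positions. It held 2.23%, 1.58% and 10.3% of the region's events in control replicates 1, 2 and 3. It held 6.68%, 4.82% and 15.9% in QKI-5 replicates 1, 2 and 3. Control replicates 1 and 2 were the lowest and QKI-5 replicate 3 the highest, with control replicate 3 between the QKI-5 libraries (means 4.7 ± 4.86% and 9.14 ± 5.93%, exact permutation p = 0.5, n = 3). This base alone took 22.1%, 15.3% and 36.3% of all 12S events in the controls and 31.2%, 24.03% and 46.3% in the QKI-5 libraries. With positions 3183 and 921 both left out, the 12S share of the remaining 12S plus 16S events was 10.7%, 9.67% and 26.5% in controls and 16.5%, 17.6% and 25.7% with antibody. Control replicate 3 was then the highest of all 6 libraries.

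Positions 1703 and 1706, bases 33 and 36 of the 16S part, formed a cluster near its start. Position 1706 held 3.52%, 8.61% and 1.68% of the region's events in controls 1, 2 and 3 and 2.02%, 4.6% and 1.94% in QKI-5 replicates 1, 2 and 3. Position 1703 held 1.97%, 5.45% and 1.26% in controls and 0.587%, 2.01% and 0.998% with antibody. The replicate numbered 2 was highest in each group at both bases, and the groups overlapped (exact permutation p = 0.7 for 1706 and 0.3 for 1703, n = 3). Here the signal was spread over neighbouring bases, as position 1706 took only 26.7 to 50.1% of the events within 5 nt.

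Positions 3098 and 2344 complete the named positions. Position 3098, base 1428 of the 16S part, held 3.68%, 3.44% and 2.31% of the region's events in controls and 0.579%, 1.64% and 1.38% with antibody. Every control lay above every QKI-5 library there (means 3.15 ± 0.733% and 1.2 ± 0.553%, SD, n = 3, exact permutation p = 0.1). Position 2344, base 674 of the 16S part, held 1.29%, 1.87% and 1.47% in controls and 0.766%, 2.52% and 0.982% with antibody, with means of 1.54 and 1.42% (exact permutation p = 0.9, n = 3). It was a single-base peak in all 6 libraries, with 88.9 to 100% of the events within 5 nt.

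**Figure D2:**
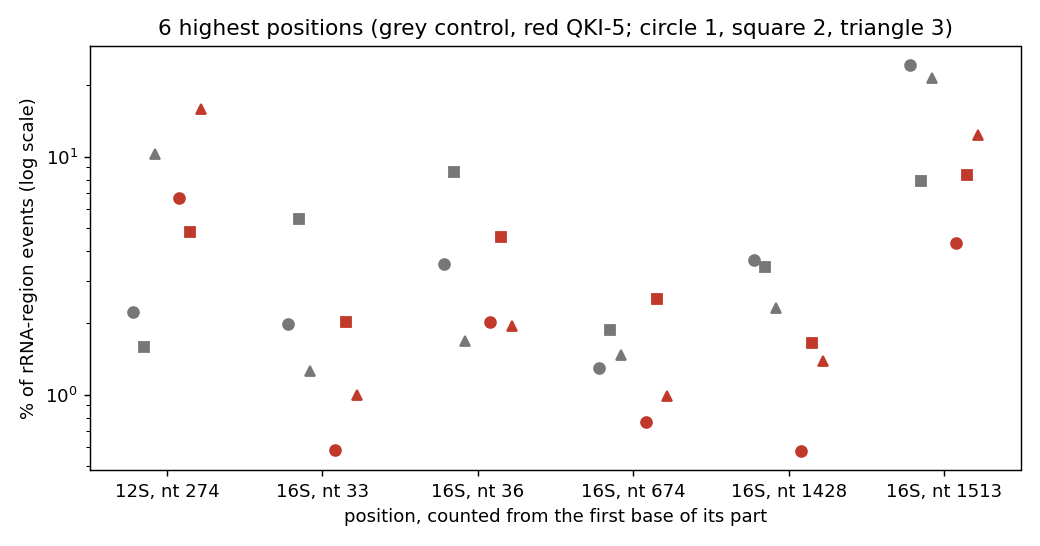
Share of the region's events, in % on a log axis, at the 6 highest positions, ordered along the region and labelled by base within the 12S or 16S part. Each point is a library (grey control, red QKI-5; shapes give replicate numbers). At base 1428 of the 16S part the controls (2.31 to 3.68%) lie above the QKI-5 libraries (0.579 to 1.64%), and at the other bases the groups overlap.

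The strong positions were also set beside those elsewhere. In the whole genome, 391 positions had a mean of at least 50 EPM over the 6 libraries, and 45 of them lay in the rRNA region, 6 in 12S and 39 in 16S. Every QKI-5 library lay below every control at 9 of the 45, all in 16S, against 19.7% of the 391 positions, so the count is near the background. Every QKI-5 library lay above every control at 0 of the 45, against 0.256% of all. A single control event is worth up to 33.5 EPM, so a position can pass this filter through 1 control alone, as position 930 did, and lower QKI-5 values among the 391 are partly set by the filter. On the share scale, only the 25 positions with the highest mean share were looked at here, and the rate of each order over all positions is not given. Among them, 2 further positions are described because every QKI-5 share exceeded every control share there, so no test is given. Position 1825 held 0.323%, 1.004% and 0.42% of the region's events in controls and 1.74%, 4.32% and 1.07% with antibody, and position 932 held 0.808%, 0.717% and 1.05% against 1.37%, 1.43% and 2.51%. In EPM the groups overlapped at both. The opposite order held at positions 1709 and 1718, there in EPM as well. Position 1709 held 1.1%, 1.72% and 1.47% in controls and 0.284%, 0.831% and 0.799% with antibody. Position 1718 held 1.03%, 0.4304% and 0.84% in controls and 0.417%, 0.4301% and 0.339% with antibody. Control replicate 2, with 3 events there, and QKI-5 replicate 2 were nearly tied. Positions 1709 and 1718 were also picked by their order, so no test is given.

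**Figure D3:**
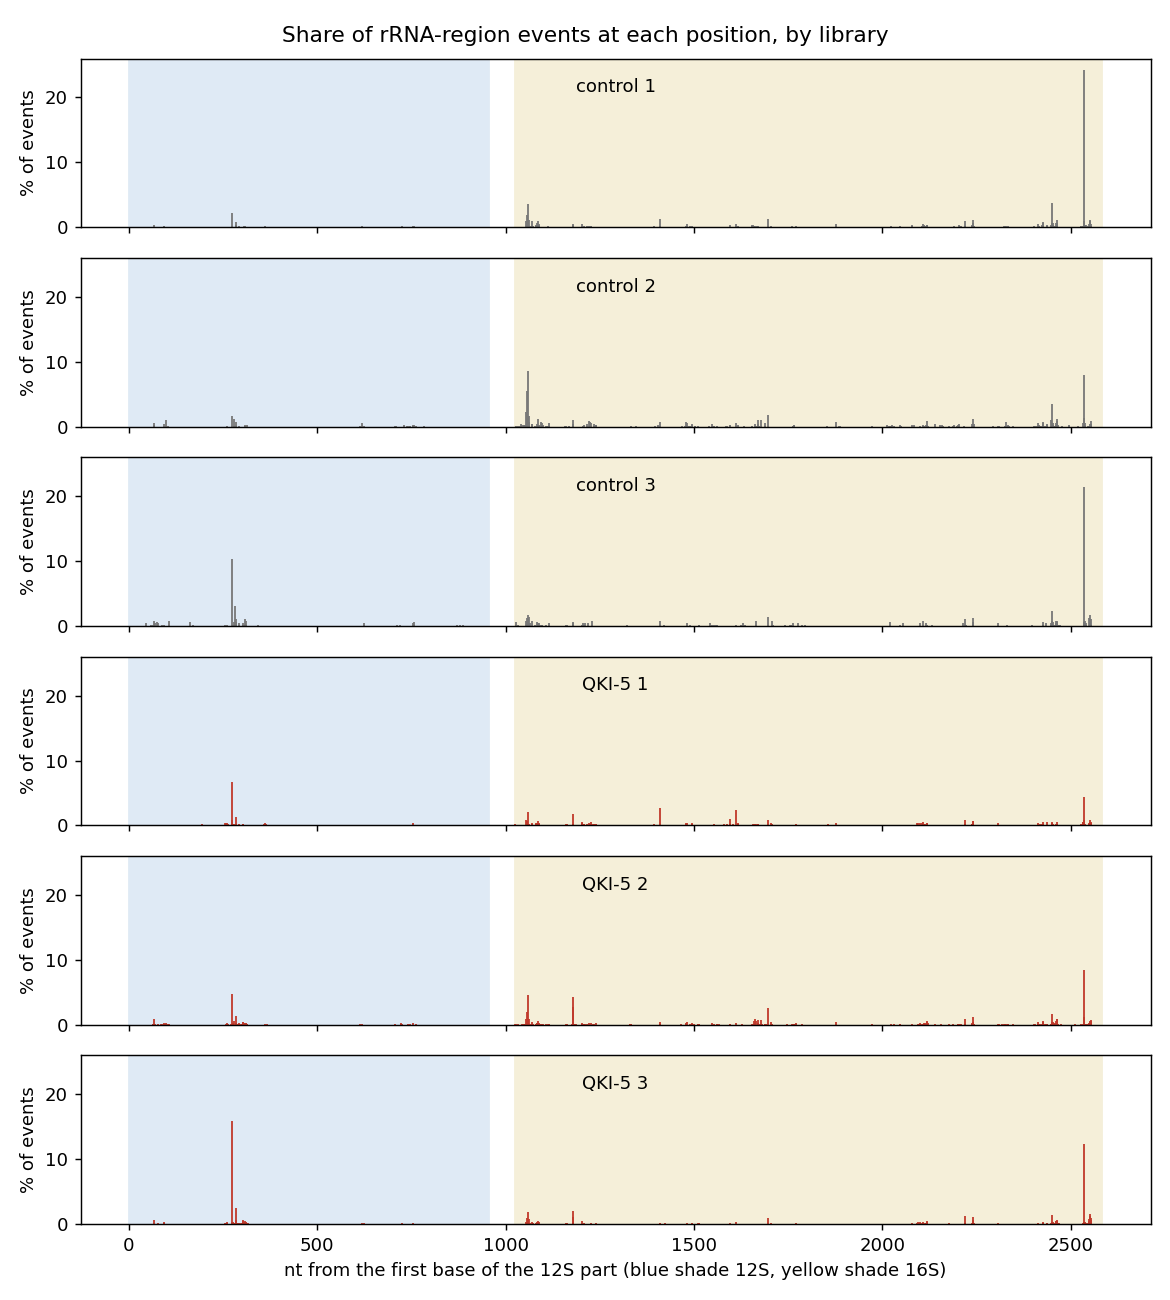
Share of the region's events at each base, in %, against distance from the first base of the 12S part, with 1 panel per library (grey control, red QKI-5; blue shade 12S, yellow shade 16S). The same few spikes recur in all panels, near bases 274, 1059 and 2536 of the region, at differing heights.

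The region was next divided into 27 bins of up to 100 nt that do not cross a boundary, and these were tested with edgeR together with strand-specific 100-nt bins of the whole genome. Of the 27, 23 passed the filter on low counts. The bins left out were 1048 to 1147, 1148 to 1247, 1548 to 1603 and 1604 to 1670. They held 0, 17, 19 and 53 events over all libraries, so the 23 do not stand for all 27. Elsewhere in the genome, a bin that passed the filter through QKI-5 depth alone would have had to differ. Among all 1785 bins tested, 49.9% were called higher and 3.08% lower in QKI-5 libraries. Of the 23 rRNA bins, edgeR called 0 higher and 0 lower. DESeq2 called 3 of the 23 higher, against 49.0% of all 1785. An unadjusted p under 0.05 was found for 1 of the 23, against 58.9% of all tested bins. Every QKI-5 library exceeded every control in EPM in 0 of the 23, against 48.0% of all. Their median log2 fold change was 0.52 against 2.63 over all tested bins, and none of the 23 lay above that median. With library totals the median of the 23 was -0.42, and 3 of 23 were above 0 in place of 20, so the sign depends on the scaling. Of all tested bins, 702 had no control event and were all called higher, and none of these lay in the rRNA region. Among the 243 bins with an event in each control, 3.29% were called higher and 15.6% lower, and of the 21 rRNA bins among them 0 were called. The median log2 fold change was 0.0047 over those 243 bins and 0.47 over the 21, so the median rRNA bin lay below the median of all 1785 bins and above that of these 243. Without control replicate 1, edgeR called 1 of 24 rRNA bins higher, against 4.74% of all 9070 bins then tested. Without control replicate 3 it called 3 of 24 higher, against 9.13% of 9978.

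With TMM scaling, the 2 bins with the highest log2 fold change were 1771 to 1870 in 16S and 848 to 947 in 12S. The first held 689, 603 and 503 EPM in control replicates 1, 2 and 3 and 636, 1596 and 629 EPM with antibody (edgeR log2 fold change 1.67, SE 0.78, adjusted p = 0.0634). Only QKI-5 replicate 2 stood clear of the others on this scale. As a share of the region's events, however, each QKI-5 library (7.35%, 10.01% and 6.04%) exceeded each control (3.07%, 3.59% and 3.15%). This order of shares held in 1 of the 27 bins, and the opposite order in 1. The bin 848 to 947, which contains position 921, held 1117, 699 and 2717 EPM in controls and 1216, 1598 and 2522 EPM with antibody (log2 fold change 1.35, SE 0.73, adjusted p = 0.11 by edgeR). DESeq2 called both bins and their 12S neighbour 948 to 1047. With library totals in edgeR, the log2 fold change was 0.66 for 1771 to 1870 (adjusted p = 0.462). It was 0.25 for 848 to 947 (edgeR adjusted p = 0.781) and 0.30 for 948 to 1047, so these values depend on the scaling.

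With TMM scaling, the 2 lowest log2 fold changes belonged to the closing bins of 16S. With library totals, 3171 to 3230 was also the lowest (-1.41, edgeR adjusted p = 0.0807). The first bin of 16S, 1671 to 1770, followed (-1.29, edgeR adjusted p = 0.0993), then 3071 to 3170 (-1.20, edgeR adjusted p = 0.136). The bin 3171 to 3230, which contains position 3183, held 6989, 2122 and 4596 EPM in controls and 929, 2135 and 2116 EPM with antibody (log2 fold change -0.51, SE 0.69, adjusted p = 0.549 by edgeR). The bin 3071 to 3170 held 2799, 2098 and 1476 EPM in controls and 534, 1470 and 775 EPM with antibody (log2 fold change -0.23, SE 0.73, adjusted p = 0.812 by edgeR). Every control exceeded every QKI-5 library in the latter, as EPM and as a share of the region, but by little between control replicate 3 and QKI-5 replicate 2. This EPM order held in 2 of the 23 tested rRNA bins and in 5.6% of all 1785. By mean share the highest bins were 3171 to 3230, the first 100 nt of 16S (1671 to 1770) and 848 to 947. The first 100 nt of 16S held 15.5%, 29.3% and 11.1% of the region's events in controls and 11.5%, 14.6% and 8.12% with antibody.

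**Figure D4:**
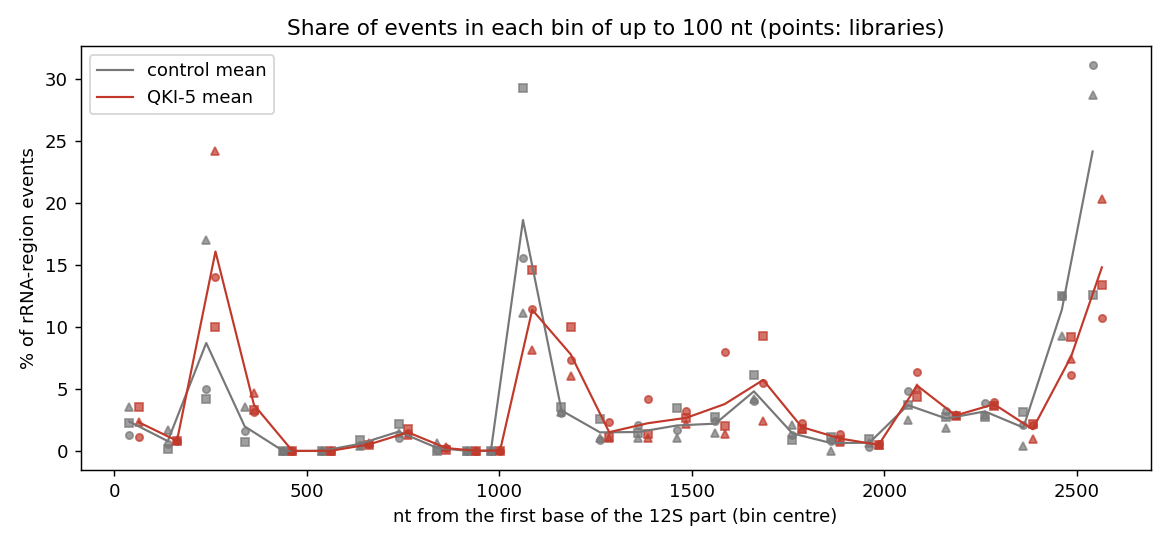
Share of the region's events, in %, in each bin of up to 100 nt against the distance of the bin centre from the first base of the 12S part, with points offset by 12 nt to either side for display. Lines join group means (grey control, red QKI-5) and points are libraries. The control mean is highest in the last bin of 16S (24.2 against 14.8% with antibody), and the QKI-5 mean in the 12S bin that holds base 274 (16.1 against 8.72% in controls).

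These bins led to a comparison that was chosen after the profile was seen, of the ends of the 16S part with its interior. The interior, over 100 nt from both ends and 1360 nt long, took 47.4%, 52.8% and 44.3% of 16S events in control replicates 1, 2 and 3. It took 70.8%, 64.4% and 55.8% in QKI-5 replicates 1, 2 and 3. Each QKI-5 library thus had the larger interior share (means 48.2 ± 4.31% and 63.7 ± 7.52%, SD, n = 3, exact permutation p = 0.1). Because the comparison was picked from these same libraries, its p-values are a description and not a test. In EPM the ends held 10607, 7113 and 6374 in controls and 1984, 4534 and 3014 with antibody, without overlap. The interior held 9563, 7957 and 5065 EPM in controls and 4814, 8208 and 3808 EPM with antibody, and there the groups overlapped (exact permutation p = 0.3, n = 3). Which end was the heavier differed by library: the first 100 nt took 32.6% of 16S events in control replicate 2 and the last 100 nt 14.6%, while in control replicate 3 they took 15.5% and 40.2%. With the 10 highest positions left out, the interior difference was 8.06 percentage points in place of 15.5, still without overlap.

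Events were also spread over more bases in the QKI-5 libraries at equal counts. Thinned to 476 events, the smallest total of the region in any library, the expected number of distinct positions was 186, 181 and 141 in control replicates 1, 2 and 3. It was 256, 213 and 195 in QKI-5 replicates 1, 2 and 3. All QKI-5 values lay above all control values (means 169 ± 24.6 and 221 ± 30.8, SD, n = 3, exact permutation p = 0.1). The 10 highest positions together took 39.7%, 32.1% and 41.8% of the region's events in controls and 18.96%, 33.7% and 40.2% with antibody, where only QKI-5 replicate 1 stood apart (exact permutation p = 0.5, n = 3). Without QKI-5 replicate 1 the difference in that share was -0.953 percentage points in place of -6.94. Hit positions held 5.61, 3.15 and 3.38 events on average in controls and 37.9, 25.1 and 23.7 with antibody, and 46.1 to 49.8% of hit positions in controls and 12.8 to 17.5% with antibody carried only 1 event.

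**Figure D5:**
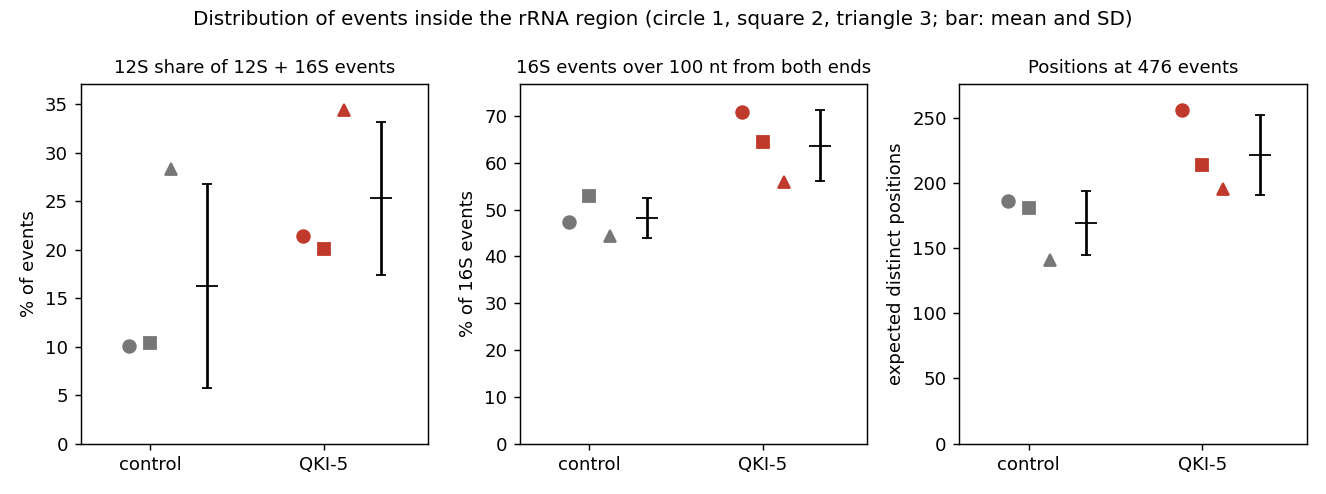
From left, the 12S share of 12S plus 16S events in %, the share of 16S events over 100 nt from both ends in %, and the expected number of distinct positions at 476 events, for each library (grey control, red QKI-5) with group mean and SD (n = 3) as black bars. The groups overlap in the first panel and do not in the others, where controls reach 52.8% and 186 positions and QKI-5 libraries start at 55.8% and 195 positions.

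Nearly all positions hit in controls were also hit with antibody. Of 655 positions with an event in any control, 651 had one in a QKI-5 library, 99.4% of the control list and 36.2% of the 1798 QKI-5 positions. The far deeper QKI-5 libraries hit those 1798 among the region's 2583 bases. The part of depth in this overlap was not tested. All 6 libraries shared 52 positions, 45 in 16S and 7 in 12S. The 12S part was hit at 52.3% of its bases and the 16S part at 82.8%. Much of the 12S remainder lay in long stretches without an event in any library, although the region averaged 50.9 events per nt over the 6 libraries. The longest, 1020 to 1209 (190 nt), followed 100 nt with 21537 events. Others were 1440 to 1491 (52 nt) in 12S and 1896 to 1950 (55 nt) in 16S. A further one, 1558 to 1608 (51 nt), ran from 12S into the stretch between the rRNAs, and 1621 to 1670 (50 nt) lay inside that stretch. The 3 bins with the lowest share were 1048 to 1147 with 0 events in every library, 1148 to 1247 with 0 events in every control and 6, 11 and 0 events in QKI-5 replicates 1, 2 and 3, and 1548 to 1603 with at most 13 events in any library. Whether reads from these stretches could be placed uniquely was not tested.

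Over bins, and by Pearson's r over single positions, profiles of libraries from different groups resembled each other over much the same range as those within a group. Over the 27 bins, Pearson's r between libraries was 0.597 to 0.906 among controls, 0.768 to 0.868 among QKI-5 libraries and 0.463 to 0.92 between groups. Spearman's rho was 0.746 to 0.93 among controls, 0.899 to 0.97 among QKI-5 libraries and 0.807 to 0.946 between groups, as a description of bins that share libraries. Over the 2583 single positions Pearson's r was 0.619 to 0.911, 0.786 to 0.863 and 0.526 to 0.872 in the same order. Spearman's rho over these positions was 0.276 to 0.418 among controls, 0.764 to 0.79 among QKI-5 libraries and 0.302 to 0.597 between groups. By that measure the QKI-5 libraries resembled each other more than any control. The part of depth in this was not tested. A control and a QKI-5 library shared 9 to 14 of their 20 highest positions, QKI-5 libraries shared 10 to 14 with each other and controls 9 to 13.

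The opposite strand of the same bases served as background. It held 0 events in each control and 14, 1 and 0 events in QKI-5 replicates 1, 2 and 3, against 63015, 34177 and 30055 on the rRNA strand. A count of 0 allows a minus-strand share of up to 0.0969%, 0.43% and 0.63% in controls 1, 2 and 3. The plus-strand share was 100% in each control and 99.98%, 99.997% and 100% in QKI-5 replicates 1, 2 and 3 (exact permutation p = 0.4, n = 3).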

How the data were processed

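The deposited counts are crosslink events at single-nucleotide positions and strands, 1 library per file and not normalized by the authors. Bowtie, cutadapt and hg19 are named in the submitters' processing notes. The sources used here do not state versions, settings, merging of PCR copies or treatment of multiple alignments. Coordinates are hg19, counted from 1. No sequence or annotation of this build was used, so no bases are shown.

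Events were summed over the rRNA parts and over strand-specific windows of 10 kb and bins of 100 nt of the whole genome. These were tested with edgeR 4.0.16 (R 4.3.3; quasi-likelihood, TMM, filterByExpr, group as the only term, library totals as depth), with p-values adjusted over all features. Values per library were compared by two-sided exact permutation in Python 3.11.15 with numpy 2.4.6, pandas 2.3.3 and scipy 1.17.1, and plotted with matplotlib 3.10.9. Thinned position counts are hypergeometric expectations. DESeq2 1.42.0, other scalings, filters, bin widths, boundaries, distinct positions, a replicate block and leaving out each library were alternatives. The fits and the thinning were tested on simulated data.

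Named were the 3 parts, the 6 positions with the highest mean share over the 6 libraries, the 3 bins with the highest and the 3 with the lowest mean share, and the 2 bins with the highest and the 2 with the lowest log2 fold change. The region and the lists were chosen with earlier results of these data known.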

Additional observations from a re-analysis of the deposited data

How the results depend on the processing

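The share of events in the region was lower, and the interior share of 16S and the thinned position count were higher, in QKI-5 libraries under each alternative tried, with differences of -0.888 to -0.352, 8.06 to 19.5 and 24.1 to 65.2 (percentage points, percentage points and positions). As the groups did not overlap with all libraries, leaving out 1 library could not reverse these signs. The replicate block changed only the p and not the difference. Counting each position once gave the region a mean share of 0.716% in controls and 0.0727% in QKI-5 libraries. With only 2583 bases, the region could not reach any control's share in QKI-5 libraries of 1243745 to 5239862 positions. How far bases already hit shaped the interior share by distinct positions, 73.0% and 85.0%, was not tested. These settings therefore could not test the direction, and the interior share was chosen after the profile was seen. The 12S share of 12S plus 16S events was higher in QKI-5 libraries by 3.73 to 15.1 percentage points in all alternatives. The 12S log2 fold change was -2.17 with distinct positions and, with 1 library left out, ran from -0.12 (QKI-5 replicate 3 removed) to 1.51 (control replicate 1 removed). That of 16S ran from -1.27 (QKI-5 replicate 2 removed) to 0.92 (control replicate 1 removed), and was 0.26 with no filter on low counts. The cause of these changes was not tested. Of the rRNA bins, 0 to 3 were called higher with 1 library left out (0 to 9.13% of all bins), 2 of 23 with DESeq2 size factors in edgeR (47.8% of all), 3 of 23 with the DESeq2 Wald test (49.0%), 3 of 42 with 50-nt bins (39.9%) and 21 of 26 with a filter of at least 10 events (13.6% of 177243). The last setting had a median log2 fold change of 4.48 over all bins against 3.19 for the rRNA bins. With distinct positions, 3 of 22 were called lower, the first and the last 2 bins of 16S, against 59 of all 368 bins. The first bin was already hit at 97, 94 and 84 of its 100 bases in QKI-5 replicates 1, 2 and 3. In control replicates 1, 2 and 3 it was hit at 65, 37 and 20. The bin 3071 to 3170 was hit at 96, 85 and 85 against 45, 24 and 16. How far this limits the QKI-5 counts was not tested.

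Whether numbers pair the libraries depended on the features used. The deviations from the group means correlated, for numbers 1, 2 and 3, at -0.0056, 0.094 and 0.089 over the 10 kb features, at -0.29, 0.22 and 0.19 over all 100-nt bins, and at 0.24, 0.31 and 0.67 over the 23 rRNA bins. In none of these did every library correlate best with its own number. By number, the 12S share of 12S plus 16S events was higher with antibody by 11.3, 9.74 and 6.02 percentage points. With the replicate number as a block and TMM scaling, the 16S log2 fold change was 0.014 and that of 12S 0.92. In that setting edgeR called 0 rRNA bins in either direction, against 0.504% of all bins called higher. With the block and library totals, an unplanned fit, the log2 fold change was -0.85 for 16S (SE 0.26, edgeR adjusted p = 0.461) and 0.07 for 12S. The paired exact permutation p was 0.25 for the region's share, the 12S share and the interior share, the smallest that 3 pairs allow. For the interior share, picked from these same libraries, it is only a description.

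The 29810 to 137926 events of the controls limit single bins and positions.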

Other observations

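Outside the rRNA region, the plus strand of chromosome M, which carries most mitochondrial messenger RNAs, held 1167, 820 and 1208 EPM in control replicates 1, 2 and 3 and 1360, 1191 and 1375 EPM in QKI-5 replicates 1, 2 and 3 (two-sided exact permutation p = 0.2, n = 3). The rRNA region therefore took 95.1%, 95.3% and 92.97% of plus-strand chromosome M events in controls and 86.4%, 93.1% and 88.3% with antibody (exact permutation p = 0.2, n = 3). QKI-5 replicate 2 and control replicate 3 were again nearly equal, and without QKI-5 replicate 2 the groups did not overlap. Counting each position once gave means of 85.02% in controls and 47.5% in QKI-5 libraries, a difference of -37.5 percentage points in place of -5.19, without overlap. The part of the region's bases already hit was 5.46 to 21.4% in controls and 49.1 to 64.3% with antibody. How far this limits the QKI-5 value was not tested, nor was any other cause.

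Position 930 in 12S, chosen after its values were seen, held 503 EPM in control replicate 3, 0 events in the other controls and at most 5.54 EPM in the QKI-5 libraries. Its neighbour 9 nt upstream is position 921, at which the replicate numbered 3 was the highest library of each group.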
